A study of Mus musculus with 6 samples.

Results

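The TGF-β pathway genes Tgfb1, Tgfbr1, Tgfbr2, Tgfbr3, Smad2, Smad3, Smad4, Smad7, Ski and Skil were chosen by name as parts of the pathway, with earlier results of these data known, and all 10 were found among the 29393 genes of the count table. They were compared in converted double negative T cells (cDNT), T cells that carry neither CD4 nor CD8 on the surface. According to the study's methods, the starting cells were CD4+CD25- T cells, kept in coculture with IL-2 and mature dendritic cells, and the double negative cells were then sorted out. The cells of the IL-10 group (W/ IL-10) received anti-CD3/CD28 antibodies and 50 ng/ml IL-10 for 24 h, and those of the other group (W/O IL-10) received no IL-10. The labels give both groups as double negative T cells of adult C57BL/6 spleen and name no antibodies, and neither source states whether the W/O IL-10 cells received them. Each group had 3 libraries, and nothing states that they came from separate cultures, so the p-values measure the spread between these libraries only.

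TGF-β1 is secreted in a latent form and, once freed, binds a pair of serine/threonine kinase receptors, TGFBR2 and TGFBR1, with TGFBR3 as a coreceptor that presents the ligand. The active receptor phosphorylates SMAD2 and SMAD3, which join SMAD4 and regulate genes in the nucleus. SMAD7 shuts the receptor down, and SKI and SKIL (SnoN) are corepressors that hold SMAD complexes inactive. In T cells the pathway is known for restraining activation and cytotoxic effector genes, and for supporting regulatory, tissue-resident and Th17 programmes.

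Of the 10 genes, only Ski, the corepressor, changed between the groups by the test used here, the quasi-likelihood test of edgeR with Benjamini-Hochberg adjustment over all 14916 genes tested. Ski was lower with IL-10, with a fold of 0.738. No member reached both a fold change of at least 1.5 and an adjusted p under 0.05, where 1.45% of all tested genes did (0.778% higher and 0.677% lower W/ IL-10), and DESeq2 and limma-voom called none of the 10 either. The count with an adjusted p under 0.05 at any fold was 1 of 10, beside 2.19% of all tested genes (1.21% higher and 0.979% lower). An unadjusted p under 0.05 was given to 4 of the 10 (Tgfb1, Tgfbr3, Smad3 and Ski), beside 14.7% of all tested genes. In those same 4 genes every W/ IL-10 library lay below every W/O IL-10 library, beside 11.2% of all tested genes. In no member did every W/ IL-10 library lie above, beside 11.3% of all tested genes, and 22.6% showed no overlap in either direction. The median log2 fold change was -0.17 over the 10 genes, with 9 negative values, and 0.01 over all tested genes. All 10 genes passed the filter on low counts. In these bulk libraries, fewer cells that express a gene and less RNA of it per cell cannot be told apart.

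The regions upstream of the genes are shown for the member that changed, for Tgfb1 and Smad3, which were also lower in every W/ IL-10 library, and for Tgfbr2, which was level. They are the RefSeq promoter windows of GRCm38.p6 from 250 bases upstream of the start site, printed 5′ to 3′ on the strand of the gene, and a window was found for 5 of the 10 genes. For Ski, only the 193 bases outside the gene as GENCODE release M21 has it are printed. Capitals mark the GC box GGGCGG, a core of Sp1-type sites, or its reverse complement CCGCCC. It was searched for after the sequences had been seen.
Ski, chr4:155222593-155222785, minus strand: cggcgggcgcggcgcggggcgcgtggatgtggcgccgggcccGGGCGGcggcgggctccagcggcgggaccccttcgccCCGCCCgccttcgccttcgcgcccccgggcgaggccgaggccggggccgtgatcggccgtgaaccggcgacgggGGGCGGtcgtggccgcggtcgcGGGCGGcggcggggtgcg
Tgfb1, chr7:25686752-25687001, plus strand: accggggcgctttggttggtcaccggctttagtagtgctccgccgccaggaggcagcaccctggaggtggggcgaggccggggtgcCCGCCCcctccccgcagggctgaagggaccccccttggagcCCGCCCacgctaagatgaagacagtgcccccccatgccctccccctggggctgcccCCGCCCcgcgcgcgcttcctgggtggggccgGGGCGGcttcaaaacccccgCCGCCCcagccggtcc
Smad3, chr9:63757995-63758244, minus strand: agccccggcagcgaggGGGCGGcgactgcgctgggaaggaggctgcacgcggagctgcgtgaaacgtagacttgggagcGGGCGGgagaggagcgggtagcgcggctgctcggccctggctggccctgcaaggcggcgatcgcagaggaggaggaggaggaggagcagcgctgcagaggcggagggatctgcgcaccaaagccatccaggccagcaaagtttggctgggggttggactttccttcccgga
Tgfbr2, chr9:116175364-116175613, minus strand: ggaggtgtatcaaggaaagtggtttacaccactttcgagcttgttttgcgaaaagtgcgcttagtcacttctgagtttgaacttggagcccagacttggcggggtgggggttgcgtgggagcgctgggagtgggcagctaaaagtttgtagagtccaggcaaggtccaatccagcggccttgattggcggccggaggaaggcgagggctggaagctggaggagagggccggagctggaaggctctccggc
The window of Ski held 5 GC boxes over its 250 bases, 4 of them in the printed part. That of Tgfb1 held 5, that of Smad3 held 2 and that of Tgfbr2 held 0, and 32.7% of 32851 RefSeq promoter windows of the same length held at least 1. The Ski window was 87.6% G and C, against a median of 52.4% over all windows. Of all windows, 0.0365% had as high a share. The STAT motif TTCNNNGAA, which equals its own reverse complement, was found in none of the windows of the 5 genes and in 7.02% of all windows. The SMAD motifs CAGACA (or TGTCTG) and GTCTAGAC were absent from these 4 windows, and were present in 17.1% and 0.167% of all windows, respectively. Tgfbr1, whose groups overlapped, had 2 windows. The first held 2 GC boxes and was 74.8% G and C, so GC boxes were not particular to the lower genes. The second, which lies within the gene, held CAGACA and no GC box. These are matches of letters in short windows only.

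Tgfb1, the ligand, lies on chromosome 7 from 25687002 to 25705077 in GRCm38. Its normalized expression in CPM (counts relative to TMM-scaled library sizes) was 467, 436 and 440 for replicates 1, 2 and 3 W/O IL-10. It was 383, 417 and 376 for the same replicate numbers W/ IL-10. The W/ IL-10 libraries all lay below the others, but the highest of them was close to the lowest W/O IL-10 library. The means were 447 ± 16.9 and 392 ± 21.9 CPM (SD, n = 3 each), a log2 fold change of -0.19 (SE 0.079, edgeR adjusted p = 0.305), which did not pass the test.

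Among the receptors, Tgfbr2, the ligand-binding receptor, was level. It gave 443, 454 and 472 CPM W/O IL-10 and 444, 448 and 477 CPM W/ IL-10. The 2 ranges nearly coincided, and the 95% interval of the log2 fold change ran from -0.17 to 0.17. Tgfbr1, the kinase that Tgfbr2 activates, gave 43.6, 58.5 and 54.7 CPM W/O IL-10, and 51.2, 44.1 and 45.7 CPM W/ IL-10. The groups overlapped, with W/O IL-10 replicate 1 the lowest of the 6, and the log2 fold change was -0.15 (SE 0.118, edgeR adjusted p = 0.595).

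Tgfbr3, the coreceptor betaglycan, showed the largest difference of the 10 genes in the fit, and it was also the least abundant, with 147 to 266 counts per library. It gave 8.95, 11.0 and 10.4 CPM W/O IL-10, and 7.14, 7.02 and 6.70 CPM W/ IL-10. The W/ IL-10 libraries were close together and all lower. The log2 fold change was -0.54 (95% interval -0.85 to -0.23), and the edgeR adjusted p of 0.0898 missed the threshold, whereas DESeq2 gave an adjusted p of 0.0431. Without W/O IL-10 replicate 1, edgeR gave -0.63 and an adjusted p of 0.0297, past both thresholds. Without any 1 of the other 5 libraries the adjusted p was 0.185 to 0.312, and limma-voom gave 0.106. Of the exonic bases of Tgfbr3, 4.54% lie under Gm43422 on the same strand, so its counts are the least certain of the 10 in this respect.

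**Figure D1:**
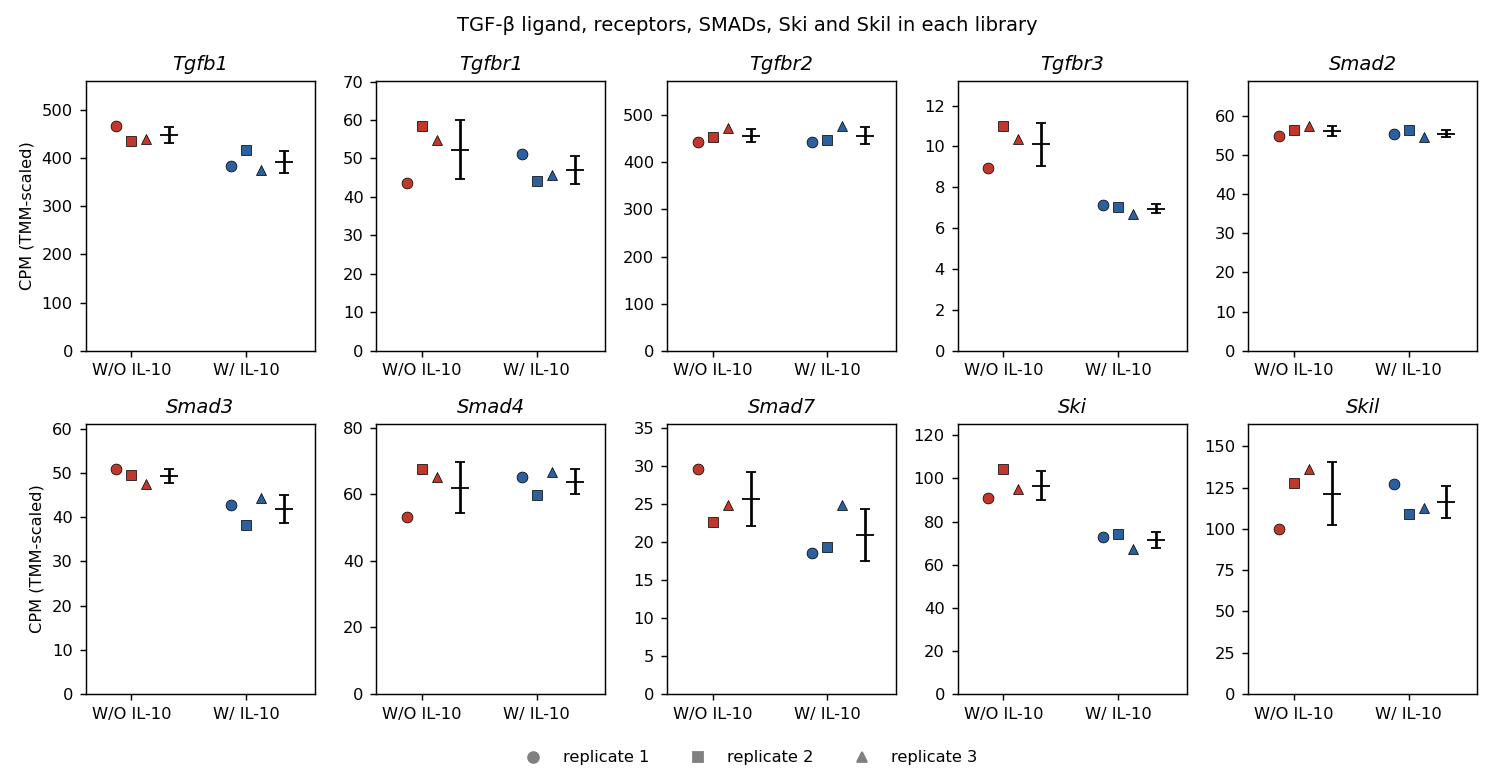
Expression of each of the 10 genes in CPM (vertical axes from 0, a scale of its own for each gene) in the 3 W/O IL-10 libraries (red) and the 3 W/ IL-10 libraries (blue), with the replicate number as the shape, and the mean ± SD of the group in black. For Tgfb1, Tgfbr3, Smad3 and Ski the blue points all lie below the red ones, and Tgfbr2 and Smad2 sit at the same height in both groups.

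Of the receptor-activated SMADs, Smad2 had the smallest standard error of the 10 genes (0.068 on the log2 scale). It gave 54.8, 56.4 and 57.4 CPM W/O IL-10, and 55.4, 56.4 and 54.6 CPM W/ IL-10, with a 95% interval of the log2 fold change from -0.17 to 0.14. Smad3, its partner, gave 50.9, 49.6 and 47.6 CPM W/O IL-10, and 42.8, 38.3 and 44.4 CPM W/ IL-10. All W/ IL-10 values were lower, by a log2 fold change of -0.24 (SE 0.084, edgeR adjusted p = 0.226), which did not pass. Smad4, the common partner, gave 53.4, 67.6 and 65.2 CPM W/O IL-10, and 65.3, 59.7 and 66.7 CPM W/ IL-10. The groups overlapped, W/O IL-10 replicate 1 was again the lowest, and the interval of the log2 fold change ran from -0.19 to 0.27.

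Smad7, the inhibitory SMAD, whose transcription SMAD3 and SMAD4 are known to raise, gave 29.6, 22.7 and 24.9 CPM W/O IL-10, and 18.5, 19.4 and 24.9 CPM W/ IL-10. W/ IL-10 replicate 3 lay within the W/O IL-10 range and the other 2 lay below it. The log2 fold change was -0.30 (SE 0.145, edgeR adjusted p = 0.392), with an interval from -0.62 to 0.03.

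Ski, on the minus strand of chromosome 4 from 155154075 to 155222592, was the 189th of the 14916 tested genes by p. It gave 90.9, 104 and 94.9 CPM W/O IL-10, and 73.0, 74.0 and 67.1 CPM W/ IL-10. Every W/ IL-10 library lay well below every W/O IL-10 library, and the means were 96.7 ± 6.85 and 71.4 ± 3.72 CPM (SD, n = 3 each). The log2 fold change was -0.44 (SE 0.080, 95% interval -0.62 to -0.26, edgeR adjusted p = 0.0316). The direction held in each alternative that was run, with values from -0.49 to -0.34. The call did not hold in all of them. It was lost with offsets for GC content and length (-0.34, adjusted p = 0.0594) and on leaving out any 1 library other than W/O IL-10 replicate 1 (adjusted p 0.0640 to 0.183), and without W/O IL-10 replicate 1 the adjusted p was 0.00496.

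Skil, the close relative of Ski, gave 99.7, 128 and 136 CPM W/O IL-10, and 127, 109 and 112 CPM W/ IL-10. The groups overlapped and W/O IL-10 replicate 1 was the lowest, with a 95% interval of the log2 fold change from -0.33 to 0.21.

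**Figure D2:**
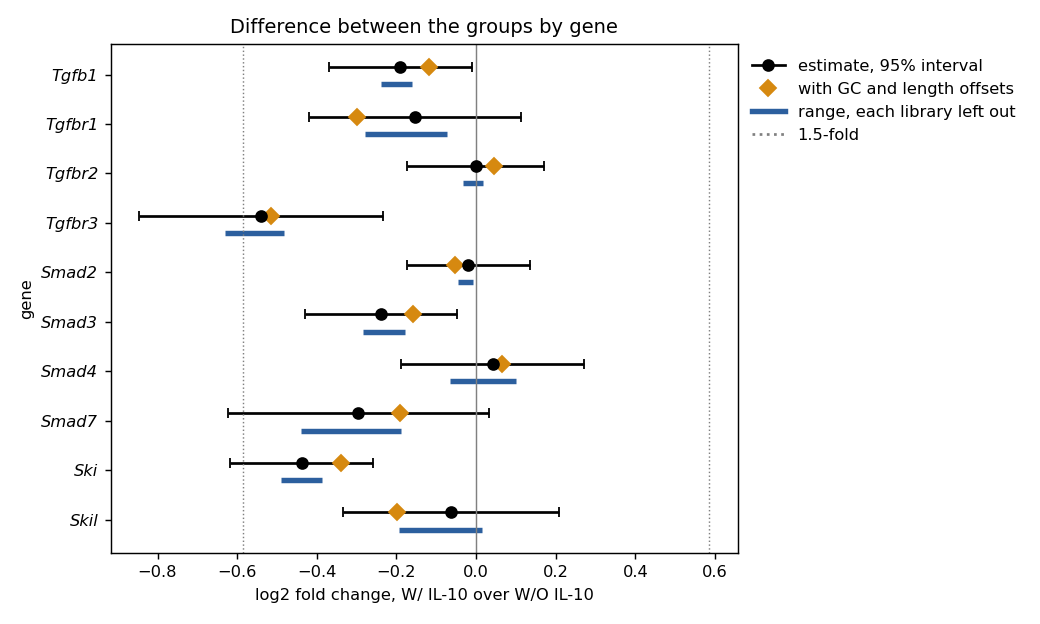
Log2 fold change of each gene, W/ IL-10 over W/O IL-10, with its 95% interval (black, 3 libraries a group), the estimate with GC and length offsets (orange) and the range over leaving out each library (blue bar), and dotted lines at 1.5-fold. Only the intervals of Tgfb1, Tgfbr3, Smad3 and Ski lie wholly below 0, before any adjustment for multiple testing.

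The ratio of 2 genes within a library does not depend on the library size. On a per-length scale (RPKM, reads scaled to the length of the union of exons and to the library size), Skil stood to Ski as 0.629, 0.703 and 0.823 W/O IL-10 and as 1.00, 0.843 and 0.961 W/ IL-10. The ratio was thus higher in every W/ IL-10 library, and it was lowest in W/O IL-10 replicate 1, where Skil was lowest. These 2 genes differ in GC content, with which the libraries also varied, and with GC and length offsets their log2 fold changes were -0.20 for Skil and -0.34 for Ski, in place of -0.06 and -0.44. Smad3 to Smad2 was 1.47, 1.39 and 1.31 W/O IL-10 and 1.22, 1.08 and 1.29 W/ IL-10, lower in every W/ IL-10 library by a narrow margin. Tgfbr3 to Tgfbr2 was 0.0252 to 0.0303 W/O IL-10 and 0.0176 to 0.0201 W/ IL-10, again without overlap. Each of these ratios sets a gene that was lower in every W/ IL-10 library against another whose groups overlapped. They thus largely restate the values of the single genes, and no share over other gene pairs was computed. The ratios of Tgfbr2 to Tgfbr1 and of Smad7 to Smad4 overlapped between the groups.

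In levels per length, the ligand and its binding receptor stood far above the rest. W/O IL-10, mean RPKM was 88.7 for Tgfb1 and 55.8 for Tgfbr2, above 96.8% and 94.3% of the tested genes, respectively. Ski (17.4), Smad4 (16.7) and Skil (12.5) followed, and then Smad3 (8.90), Tgfbr1 (7.999), Smad2 (6.40) and Smad7 (5.69). Tgfbr3 was last at 1.54 RPKM, above 28.4% of the tested genes. Tgfbr2 mRNA was thus 6.20 to 8.12 times that of Tgfbr1 in the W/O IL-10 libraries. Neighbours in that order whose libraries overlapped were Ski and Smad4, Smad3 and Tgfbr1, and Smad2 and Smad7. W/ IL-10 the order was the same but for Smad4 (17.2), which came before Ski (12.8), and the libraries of these 2 genes did not overlap, while those of Ski and Skil (12.0) did. Tgfb1 came to 77.8 RPKM in that group. With the length of the longest transcript, Tgfb1 came to 174 and 152 RPKM, and W/O IL-10 the means of Smad4 (18.3), Skil (18.05) and Ski (17.5) were close together.

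**Figure D3:**
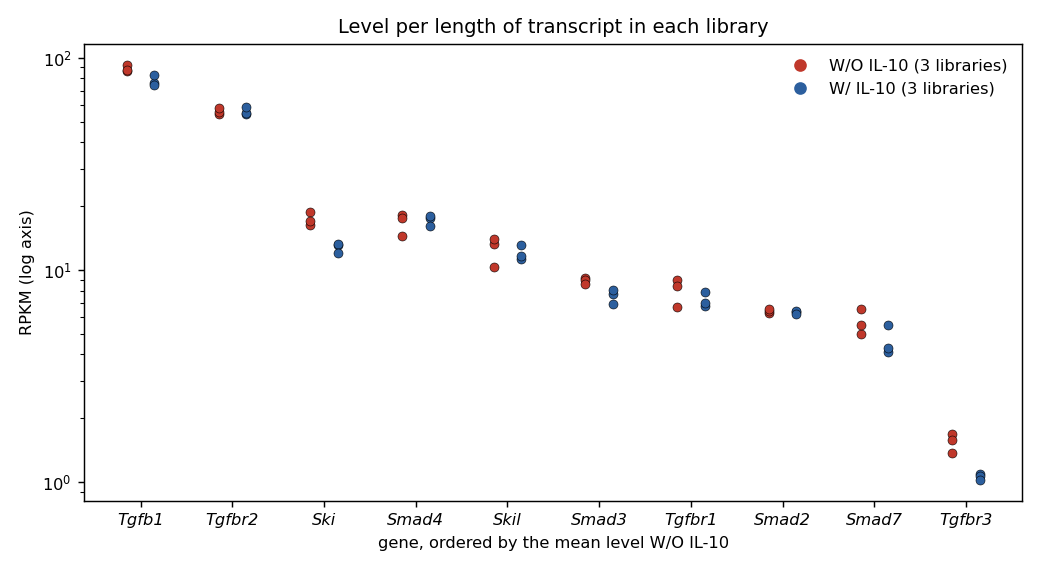
RPKM of each gene in the 3 W/O IL-10 libraries (red) and the 3 W/ IL-10 libraries (blue), on a log axis, ordered by the W/O IL-10 mean. Tgfb1 and Tgfbr2 lie above 50 RPKM in all libraries, Tgfbr3 lies below 2, and the other 7 genes lie between 4 and 19.

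The genes whose pattern over the 6 libraries was most like that of Ski were found by the root mean square difference of centred log2 CPM over all 14916 tested genes. They were 1700017B05Rik (0.0428), Kcnk5, a potassium channel (0.0487), and Sik1, a salt-inducible kinase (0.0513).

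The other genes of the pathway were taken from lists of ligands and their latency and activation proteins, receptors, SMADs, modulators, SMAD cofactors and the non-SMAD arm. Of 71 listed genes, 57 passed the filter on low counts, and 4 of these had an adjusted p under 0.05, beside 2.19% of all tested genes. All 4 were lower with IL-10. The median log2 fold change over the 57 genes was -0.02, with 25 positive and 32 negative values.

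Lrrc32 and Furin fell, both of which act on the ligand. Lrrc32 encodes GARP, which tethers latent TGF-β1 on the surface of T cells, and went from a mean of 40.8 to 28.5 CPM (log2 fold change -0.52, edgeR adjusted p = 0.0423). Its call was lost with GC and length offsets, and on leaving out any 1 library other than W/O IL-10 replicate 1. Furin, a protease that cleaves the TGF-β1 precursor, went from 354 to 242 CPM (-0.55, adjusted p = 0.0219). It no longer passed without W/O IL-10 replicate 2, W/ IL-10 replicate 1 or W/ IL-10 replicate 3. Nrros, another tether of the latent ligand, and Itgav, a chain of integrins that free it, were abundant and gave log2 fold changes of 0.01 and 0.21 (adjusted p = 0.957 and 0.453). Of the other ligands, named here after their values had been seen, Tgfb3 had 23 to 37 counts in the W/O IL-10 libraries and 42 to 56 in the W/ IL-10 libraries (log2 fold change 0.87, adjusted p = 0.178). Tgfb2 had 3 to 9 counts in the W/O IL-10 libraries and 11 to 12 in the W/ IL-10 libraries. It passed the filter on low counts only through the latter, so its higher values there are not read as a result. Tgfb3 was higher in every W/ IL-10 library, beside 11.3% of all tested genes. Neither Tgfb3 nor Tgfb2 passed the test. Ltbp2, Itgb8, Itgb6, Inhba, Inhbb, Bmp2 and Bmp4 did not pass the filter.

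Eng, which encodes endoglin, the coreceptor related to Tgfbr3, fell from 18.9 to 10.7 CPM (log2 fold change -0.82, edgeR adjusted p = 0.0322), past both thresholds. Its call held without W/O IL-10 replicate 1 or 3, and was lost on leaving out any 1 of the other libraries. The activin receptors Acvr2a and Acvr1b gave 0.50 and -0.04 on the log2 scale (adjusted p = 0.294 and 0.907). Smad1 and Smad5, which serve BMP receptors, gave -0.29 and -0.15 (adjusted p = 0.269 and 0.513). Acvr1c, Acvr2b, Bmpr1b, Tdgf1, Smad6, Smad9 and Foxh1 did not pass the filter.

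Pmepa1, a TGF-β target whose product sequesters SMAD2 and SMAD3, showed the largest change of the 4, also past both thresholds. It had 297, 416 and 393 counts W/O IL-10 and 161, 180 and 146 counts W/ IL-10, or means of 15.4 and 7.40 CPM (log2 fold change -1.06, edgeR adjusted p = 0.0209). Its call held without W/O IL-10 replicate 1, and was lost on leaving out any 1 of the other libraries. The other 17 modulators lay between -0.24 and 0.16, among them the ubiquitin ligases Smurf1 (-0.11) and Smurf2 (0.01), and the abundant Fkbp1a (0.16), Strap (0.13) and Usp4 (-0.04), and none of these 5 passed. Among the cofactors the abundant Runx3 (-0.12), Hdac1 (0.10) and Ncor1 (-0.06) did not pass, nor did Rhoa (0.04), Tab2 (0.02) and Mapk14 (0.10) of the non-SMAD arm.

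Genes known to respond to TGF-β were set beside these. The list of genes that TGF-β is known to raise was shortened to 15 after the values had been seen, so no direction is read from the list as a whole. Of its 12 tested genes, Pmepa1 and Id3 had an adjusted p under 0.05, both lower, beside 0.979% lower of all tested genes. Id3, an inhibitor of E proteins, went from 3.53 to 1.44 CPM (log2 fold change -1.30, edgeR adjusted p = 0.0322), with 74 to 95 counts W/O IL-10 and 27 to 39 W/ IL-10. Its call, too, was lost on leaving out any 1 library other than W/O IL-10 replicate 1. Id2, the most abundant of the list, gave 0.40 (adjusted p = 0.0571), and Cxcr6 and Rgs16 gave -0.03 and -0.04 (adjusted p = 0.926 and 0.897). The genes of this list with too few counts to be tested were Tgfbi, Ccn2 and Itgb8.

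Among 15 genes that TGF-β is known to lower in T cells, 5 rose and 1 fell, beside 1.21% higher and 0.979% lower of all tested genes. The median log2 fold change of the 15 genes was -0.01. Gzmb, a granzyme, rose from 2305 to 5190 CPM (log2 fold change 1.17, edgeR adjusted p = 0.000527), and Gzma rose by 1.06 (adjusted p = 0.0116). Prf1, the pore-forming perforin, rose by 0.50 (adjusted p = 0.0291), and Tbx21, the T-bet factor, by 0.45 (adjusted p = 0.0467). Tbx21 did not pass with upper-quartile normalization, with at least 10 counts required in every library, or with the replicate block. Ifng rose by 1.19 (adjusted p = 0.00383), although 25.9% of its exonic bases lie under Gm49751 on the same strand. Eomes, a T-box factor of effector cells, fell, with a log2 fold change of -0.51 (adjusted p = 0.0176). These 6 genes thus moved in both directions. In both response lists together, 8 of 27 tested genes had an adjusted p under 0.05, beside 2.19% of all tested genes. Both lists were chosen with earlier results of these data known, and that of raised genes was later shortened with the values seen. The count is thus not read as an excess over all tested genes. Without any 1 library other than W/O IL-10 replicate 1 it was 2 to 3. Gzmb and Ifng passed whichever of the 6 libraries was left out. With the same 5 libraries left out in turn, the other pathway genes with an adjusted p under 0.05 numbered 0 to 2, in place of 4.

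**Figure D4:**
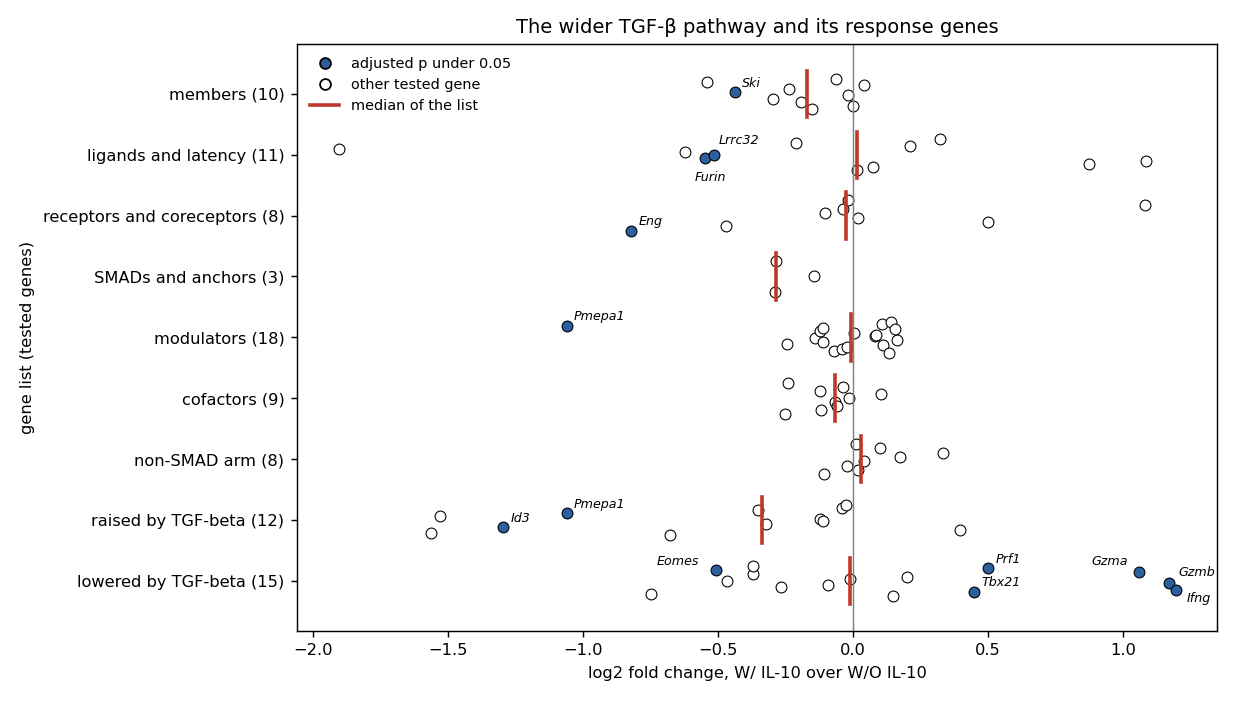
Log2 fold change, W/ IL-10 over W/O IL-10, of each tested gene of the 10 members, the 6 lists of other pathway genes and the 2 lists of TGF-β response genes (open circles), with genes at an adjusted p under 0.05 filled and named, and the median of each list as a red bar. The 4 filled genes of the other pathway lists lie below 0, and Pmepa1 appears in 2 lists.

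Total counts were 21619420 to 23967088 per library, and 3 counts corresponded to 0.123 to 0.146 CPM, which covers counting error only. Of 7 genes listed as a check of the IL-10 response, 4 had an adjusted p under 0.05. Socs3 rose by 1.82, Bcl3 by 1.69 and Pim1 by 0.52 on the log2 scale, and Il10ra fell (-0.95). Stat3 (0.38), Il10rb (-0.13) and Nfil3 (-0.22) did not pass the test. The T cell markers were present, with a summed level of 1348 to 1554 RPKM W/O IL-10 and 1634 to 1719 W/ IL-10. Of the 10 markers only Cd5 had an adjusted p under 0.05, and it went against the sum. It fell from a mean of 62.4 to 44.9 CPM (log2 fold change -0.47, edgeR adjusted p = 0.0467). The other 9 had positive log2 fold changes and did not pass the test. Cd4 had 8 to 38 counts per library, with means of 1.39 and 0.889 CPM, but Cd8a, which double negative cells lack on the surface, was at 107 and 158 CPM and rose (edgeR adjusted p = 0.0369), and Cd8b1 rose from 38.1 to 60.8 CPM (adjusted p = 0.0306). Both were higher in every W/ IL-10 library, as were Gzmb, Gzma, Prf1 and Ifng, and their part in the higher values of these 4 genes was not tested. Transcripts of other cells were also seen. The sum of the dendritic cell markers was 79.7 to 126 RPKM W/O IL-10 and 57.3 to 95.3 W/ IL-10 (7 of 10 tested), that of the macrophage markers 19.5 to 24.7 and 23.4 to 26.3 (4 of 7 tested), and that of the B cell markers 29.9 to 65.8 and 26.3 to 47.6 (5 of 5 tested). Among the dendritic cell markers Itgax was called higher, and Xcr1 was higher in every W/ IL-10 library without passing the test (log2 fold change 0.60). Ccl22, Fscn1 and Zbtb46 were lower in every W/ IL-10 library without passing the test (log2 fold changes -2.67, -1.71 and -0.44). Of all tested genes, 11.3% were higher and 11.2% lower in every W/ IL-10 library. The defining Clec9a had 1 count in 1 library and 0 in the others. Most of the dendritic cell sum came from Cd74 (means of 72.6 and 48.3 RPKM), which B cells also express. Most of the macrophage sum came from Cd68 (means of 17.5 and 21.8 RPKM, log2 fold change 0.32, edgeR adjusted p = 0.159). The other tested macrophage markers, Adgre1, Lyz2 and Cd14, gave -0.60, -0.62 and -0.56 and did not pass the test either. The sum of the NK cell markers was 141 to 150 and 102 to 107 RPKM, most of it from Eomes (means of 125 and 87.7 RPKM), which effector T cells also express. Ncr1 fell as well, while Itga2 and Klra8 gave 0.53 and 0.38 on the log2 scale (adjusted p = 0.232 and 0.748). The part of these cells in the lower values of Ski, Tgfbr3 and Eng was not tested.

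The libraries also differed by GC content. Tested genes of at most 40% GC had a median log2 fold change of 0.24 and those above 55% GC a median of -0.08, and in W/O IL-10 replicate 1 the former deviated from their means by a median of -0.51 on the log2 scale. Ski has 55.6% GC, and Tgfbr1 and Skil have 41.0% each. With GC and length offsets the log2 fold change of Tgfbr1 was -0.30 and passed the test (edgeR adjusted p = 0.0390), that of Ski no longer passed, and that of Skil was -0.20.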

How the data were processed

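The study measured transcriptomes of mouse cDNT in 6 libraries, 3 a group. The authors deposited 1 table for all 6 libraries with whole-number read counts for each gene, not normalized. Their processing notes name HISAT2, HTSeq and GRCm38, whereas the paper's methods name TopHat, Cufflinks and UCSC annotation. No source used here gives versions or the use of strand. The labels name a TruSeq kit and the methods a NEBNext kit, and the series' design text speaks of duplicates where 3 libraries are listed for each group. No 2 libraries held identical values.

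From the counts, edgeR 4.0.16 (R 4.3.3) gave TMM factors (0.953 to 1.03) and the quasi-likelihood test over 14916 genes, those that reached 10 counts in 3 or more libraries, with Benjamini-Hochberg adjustment over all of them and no block. Genes were called at an unshrunken fold change of at least 1.5 together with an adjusted p-value under 0.05. CPM used TMM-scaled library sizes, and RPKM the union of exons in GENCODE release M21 of GRCm38, which held 29332 of the 29393 identifiers. Shared sequence was the percent of 50-base stretches also found in another gene, and was at most 3.85% for the 10 genes. The alternatives were DESeq2 1.42.0, upper-quartile factors, 2 other filters on low counts, limma 3.58.1 with voom, the replicate block, offsets from splines (5 degrees of freedom) on GC content and log2 length, and each library left out. The steps were tested on simulated counts, with an adjusted p under 0.05 at any fold as the only criterion. Of 195 tested genes set to differ by a fold of 1.25, 1.5 or 2, they recovered 0%, 27.7% and 67.7%, respectively. Of the genes that passed this criterion, the share not set to differ was 100%, 8.47% and 6.38% in the same order. The rule with a fold change of at least 1.5 was not simulated. A gene that did not pass may thus still differ, even by a fold of 2. Figures were drawn with Python 3.11.15, pandas 2.3.3 and matplotlib 3.10.9.

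The 10 genes, the lists and the tests were chosen with earlier results of these data known. By rule the text names the 10 genes, list genes with an adjusted p under 0.05, up to 3 genes of the highest RPKM in each list, list genes with few counts, and the 3 genes most like the member with the smallest p. Others, among them Tgfb2, Tgfb3, Smurf1 and Smurf2, were chosen after their values were seen. Cd209a and protein sequences were not analysed here, and some genes are not reported here. They were left out of the list of genes that TGF-β raises, after the values had been seen and for a reason other than their values.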

Additional observations from a re-analysis of the deposited data

How the results depend on the processing

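The alternatives gave 140 log2 fold changes of the 10 genes. Of these, 123 kept their direction and their side of the threshold, 4 newly passed, 6 no longer passed and 7 changed sign. The sign changed for Tgfbr2 with GC and length offsets (0.0438, and 0.0441 with the replicate block as well) and on leaving out any of 3 libraries (range over all 6 -0.0341 to 0.0183), for Smad4 without W/O IL-10 replicate 1 (range -0.0655 to 0.101) and for Skil without W/O IL-10 replicate 3 (range -0.195 to 0.0158). None of these values passed the test. Those that newly passed were Tgfbr3 and Tgfbr1, and those that no longer passed were all of Ski.

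The genes called over the whole table numbered 217, and 359 with DESeq2, 639 without the filter on low counts, 331 with GC and length offsets and the replicate block, and 35 to 254 on leaving out a library. Of the members, 1 had an adjusted p under 0.05, and 2 with DESeq2, 2 with the offsets and the block, and 0 to 2 on leaving out a library, and 0 to 1 were called on leaving out a library. Other pathway genes with an adjusted p under 0.05 numbered 4, and 7 without the filter and 0 to 4 on leaving out a library. Response genes numbered 8, and 14 without the filter, 14 with the offsets and the block, and 2 to 9 on leaving out a library. The causes were not tested. The share of calls that were higher W/ IL-10 was 53.5%, against 88.6% without W/ IL-10 replicate 3, 78.9% without W/ IL-10 replicate 1, and 64.0% and 64.3% without replicate 2 of either group.

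With the replicate block alone, 196 genes were called, of which 167 were among the 217, and Ski gave -0.44 (adjusted p = 0.0477). The labels give both groups the same replicate numbers, but the deviations of same-numbered libraries from their group means correlated by 0.05, -0.06 and 0.11, so the numbers were not taken as pairs. The block changed no call of the 10 genes. With 3 libraries a group, the log2 intervals of Tgfbr1, Smad4, Smad7 and Skil reach at least 0.2 from 0 on 1 side or both. Changes of that size could thus not be told from none in these genes. Tgfb1, Smad3 and Tgfbr3 did not pass after adjustment either, and their intervals reach to -0.37, -0.43 and -0.85.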
